A study of Rattus norvegicus with 8 samples.

Results

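Col1a1 (ENSRNOG00000003897), Col1a2 (ENSRNOG00000011292), Col3a1 (ENSRNOG00000003357) and Lox (ENSRNOG00000014426) are the genes of the type I and type III collagen chains and of lysyl oxidase, the enzyme that ties collagen chains together. They were taken by identifier from the deposited count table, and are 4 of its 32285 genes. All 4 passed the filter on low counts, which left 16313 genes for testing. Total RNA was sequenced from sinoatrial nodes, the small region of the right atrium that sets the heartbeat, of Dahl salt-sensitive rats (SS/JrHsdMcwiCrl), a strain in which dietary salt raises blood pressure. The Control group (n = 4 libraries) was given chow with 0.4% NaCl for 11 weeks. The group modelling heart failure with preserved ejection fraction (HFpEF, n = 4 libraries) was given 8% NaCl over the same time. Both groups are of that single strain and no group had salt without the disease, so salt, raised pressure and heart failure cannot be told apart in these data. The labels give no sex, age or pooling and do not say that each library is a separate animal, so the p-values measure the spread between libraries, which may be in part technical.

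Fibrillar collagens are secreted as triple helices and assemble into the fibres that give the heart wall its tensile strength. Type I collagen is built from Col1a1 and Col1a2 chains and makes the thick, stiff fibres, while type III collagen is built from Col3a1 chains alone and makes finer ones. Lysyl oxidase acts outside the cell, where it oxidises lysines of collagen and elastin so that neighbouring chains become covalently cross-linked. The sinoatrial node is rich in collagen even in healthy animals, and cardiac fibroblasts are the main source of these chains.

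Lox and Col1a1 rose in HFpEF, Col3a1 was higher without passing the test, and the counts assigned to Col1a2 were about level (edgeR quasi-likelihood test, Benjamini-Hochberg adjusted over all tested genes, threshold 0.05). Thus 2 of the 4 genes were called, where 1.94% of all tested genes were called. Both were higher in HFpEF, a direction in which 1.54% of tested genes were called. The median log2 fold change over all tested genes was -0.0041. DESeq2 called Col1a1 and Lox as well, where it called 7.65% of tested genes, and limma-voom called Lox alone of the 4, where it called 1.37%. Fewer collagen-producing cells in Control and less RNA per cell cannot be told apart in whole tissue. Markers of fibroblasts and other cell types were not analysed here, because the identifiers in the table carry no names, and their part in the result was not tested.

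Total expected counts ran from 31774820 to 38889395 per library. Counting error was small against the spread between libraries. It was at most 1.10% for the 3 collagen genes and 2.52% to 5.78% for Lox, whose counts ran from 299 to 1574, while the coefficient of variation within a group was 13.7% to 28.6% over the 4 genes. These counting errors take each count as independent molecules, which the data cannot show. The biological coefficient of variation that edgeR fitted was 0.173 for Col1a1, 0.203 for Col1a2, 0.173 for Col3a1 and 0.224 for Lox, against a median of 0.130 over all tested genes. The first principal component of all tested genes held 33.2% of the variance. On it HFpEF replicate 2 lay farthest from Control (51.6). HFpEF replicates 4 (10.6) and 1 (11.5) lay nearest to Control, which stood between -30.9 and -17.2.

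Col1a1 encodes the chain that occurs in a pair in each type I collagen molecule. Its level was 408, 339, 299 and 324 CPM (counts scaled to a common library total) in Control replicates 1 to 4. In HFpEF replicates 1 to 4 it was 719, 507, 715 and 455 CPM. Every HFpEF library exceeded every Control library, as in 6.74% of tested genes, with HFpEF replicate 4 the lowest of its group at 1.11 times the highest Control library. The mean went from 343 ± 46.8 CPM in Control to 599 ± 138 CPM in HFpEF (SD, n = 4 each), a 1.75-fold rise with a 95% interval of 1.35 to 2.27. The log2 fold change was 0.81 (standard error 0.17, edgeR adjusted p = 0.0482). Of the 16313 tested genes, 732 had a higher log2 fold change than Col1a1.

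The Col1a1 call lay just inside the threshold, while its size was steady. With 1 library left out the log2 fold change stayed between 0.71 and 0.92. Leaving out Control replicates 1, 2, 3 and 4 in turn gave edgeR adjusted p-values of 0.108, 0.119, 0.138 and 0.0925. Leaving out HFpEF replicates 1, 2, 3 and 4 gave 0.0720, 0.0588, 0.0863 and 0.0377. The call was thus kept only without HFpEF replicate 4, and each of these fits has fewer libraries. Adjusted p also depends on the other genes, and these fits called 22 to 332 genes, against 316 with all libraries. The unadjusted edgeR p was 0.000897 with all libraries, 0.000878 without Control replicate 1 and 0.000903 without HFpEF replicate 2. It was 0.000252 without HFpEF replicate 4 and 0.00271 to 0.00372 without any other single library.

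**Figure D1:**
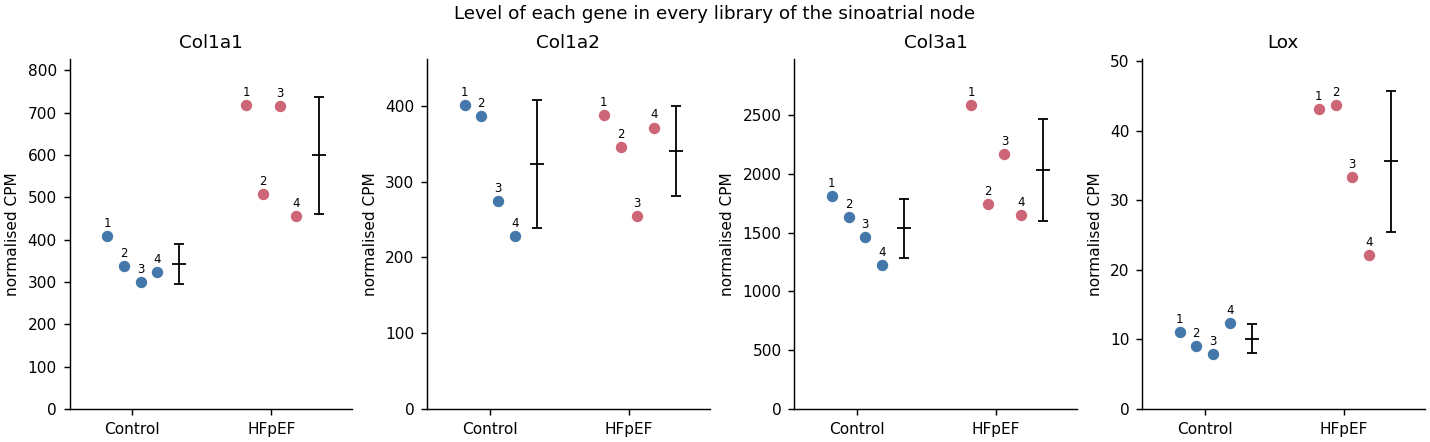
Normalised CPM (vertical axis, from 0, own scale for each gene) of Col1a1, Col1a2, Col3a1 and Lox in the 4 Control (blue) and 4 HFpEF (red) libraries; the numbers are replicate numbers and the black bars the mean and SD. HFpEF lies wholly above Control for Col1a1 (455 to 719 against 299 to 408 CPM) and Lox (22.1 to 43.7 against 7.83 to 12.4 CPM), while the groups overlap for Col1a2 and Col3a1.

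Col1a2 encodes the other chain of type I collagen. Its row held 402, 387, 275 and 229 CPM in Control replicates 1 to 4 and 388, 346, 255 and 372 CPM in HFpEF replicates 1 to 4. The groups overlapped almost fully, and no HFpEF library lay above the highest Control library. The log2 fold change was 0.07 (standard error 0.20, edgeR adjusted p = 0.872). Its 95% interval in fold terms, 0.773 to 1.44, includes a fall as well as a rise of moderate size.

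The Col1a2 row may share reads with another row. Whether such sharing set the level of the Col1a2 row was not tested. Its values were not whole in the table, unlike those of Col1a1, Col3a1 and Lox, which were whole within 0.005 in all 8 libraries. RSEM, the counting program named for these data, leaves such values when it divides reads between genes that both match them. Of the 7579 rows with a non-whole value, 1 other row, ENSRNOG00000052925, summed with Col1a2 to a whole number in every library. The row next nearest to doing so missed by up to 0.1. The sources used here give ENSRNOG00000052925 no name, and how many reads were divided is not recorded in the counts.

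This second row held about as many counts as the Col1a2 row. It stood at 327, 355, 328 and 247 CPM in Control replicates 1 to 4 and at 477, 429, 482 and 416 CPM in HFpEF replicates 1 to 4. Every HFpEF value exceeded every Control value, as in 6.74% of tested genes, while in the Col1a2 row the groups overlapped. The log2 fold change was 0.52 with a standard error of 0.11. This just missed the threshold with edgeR (adjusted p = 0.0525) and passed it with DESeq2 (adjusted p = 0.000489), which called 7.65% of tested genes. The row was examined only because its counts complement those of Col1a2.

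The share of the summed count that was assigned to Col1a2 differed between libraries. It was 55.1%, 52.1%, 45.6% and 48.0% in Control replicates 1 to 4 and 44.9%, 44.6%, 34.6% and 47.2% in HFpEF replicates 1 to 4. HFpEF replicate 3 had the lowest share and also the lowest Col1a2 level of its group, although its Col1a1 level was among the highest. A low Col1a2 count lowers both the Col1a2 level and the share, so these are not separate observations. The mean share went from 50.2% ± 4.23 (Control) to 42.8% ± 5.60 (HFpEF; SD, n = 4 each), a difference that missed the threshold in an exact two-sided permutation test (p = 0.0571).

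The sum of both rows had a larger fold than the Col1a2 row alone. The sum was 729, 742, 602 and 476 CPM in Control replicates 1 to 4 and 866, 775, 737 and 788 CPM in HFpEF replicates 1 to 4. Of the HFpEF libraries 3 of 4 lay above every Control library, and HFpEF replicate 3 lay just below Control replicate 2. The group means were 637 ± 125 CPM (Control) and 791 ± 54.1 CPM (HFpEF; SD, n = 4 each). The log2 fold change was 0.31 with a standard error of 0.13, which did not pass (unadjusted p = 0.0453, edgeR adjusted p = 0.244). The fold was thus 1.05 for the Col1a2 row as deposited and 1.24 for both rows counted together. Whether ENSRNOG00000052925 is part of Col1a2 was not tested, so the sum is not a level of Col1a2 alone. Summing was chosen after the data were seen.

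**Figure D2:**
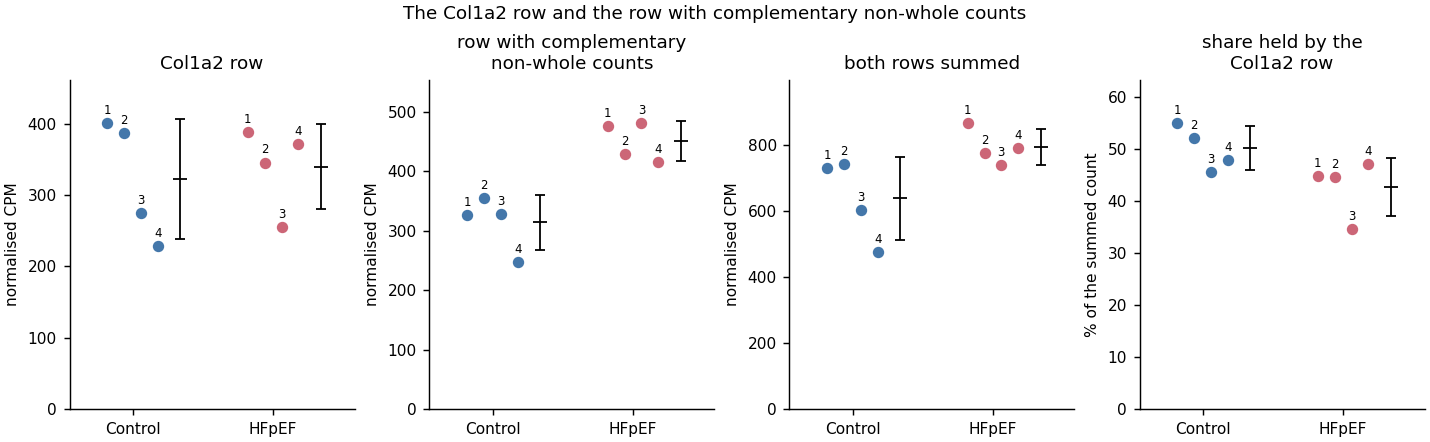
Normalised CPM of the Col1a2 row, of the row ENSRNOG00000052925 and of both summed, and in the last panel the percentage of the summed count held by the Col1a2 row, in each Control (blue) and HFpEF (red) library (numbers are replicates, black bars mean and SD, axes from 0). The groups overlap in the Col1a2 row, do not overlap in the second row (247 to 355 against 416 to 482 CPM), and overlap by a single HFpEF library in the sum.

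Col3a1 encodes the single chain of type III collagen. It stood at 1815, 1635, 1466 and 1227 CPM in Control replicates 1 to 4 and at 2588, 1740, 2166 and 1646 CPM in HFpEF replicates 1 to 4. HFpEF replicates 1 and 3 lay above every Control library, while HFpEF replicates 2 and 4 lay within the Control range. The group means were 1536 ± 251 CPM (Control) and 2035 ± 433 CPM (HFpEF; SD, n = 4 each). The fold was 1.33 with a 95% interval of 1.02 to 1.72, and the log2 fold change was 0.41 with a standard error of 0.17. It did not pass after adjustment (unadjusted p = 0.0368, edgeR adjusted p = 0.222).

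Lox encodes lysyl oxidase. Its level was 11.1, 9.0, 7.83 and 12.4 CPM in Control replicates 1 to 4 and 43.2, 43.7, 33.4 and 22.1 CPM in HFpEF replicates 1 to 4. Every HFpEF library lay above every Control library, as in 6.74% of tested genes. The lowest HFpEF library, replicate 4, was at 1.78 times the highest Control library. The mean went from 10.1 ± 2.05 CPM in Control to 35.6 ± 10.2 CPM in HFpEF (SD, n = 4 each). This was a 3.53-fold rise with a 95% interval of 2.46 to 5.06. The log2 fold change was 1.82 (standard error 0.23, edgeR adjusted p = 0.0128), and 153 of the 16313 tested genes had a higher one. By p Lox ranked 31st and Col1a1 303rd among the tested genes.

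The Lox rise kept its size when 1 library was left out, with log2 fold changes of 1.71 to 1.99. Its call was lost without Control replicate 1 (edgeR adjusted p = 0.0613) and without Control replicate 3 (0.0518). Those fits called 22 and 24 genes in all, against 316 with all libraries. The unadjusted edgeR p of Lox in them was 0.000117 and 0.000122, against 2.43e-05 with all libraries. Without Control replicate 2 it was 0.000164, and there the call was kept (edgeR adjusted p = 0.0409). The smallest adjusted p, 0.00915, came without HFpEF replicate 4, the HFpEF library with the lowest Lox. That library also had the lowest Col1a1 and Col3a1 of its group.

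**Figure D3:**
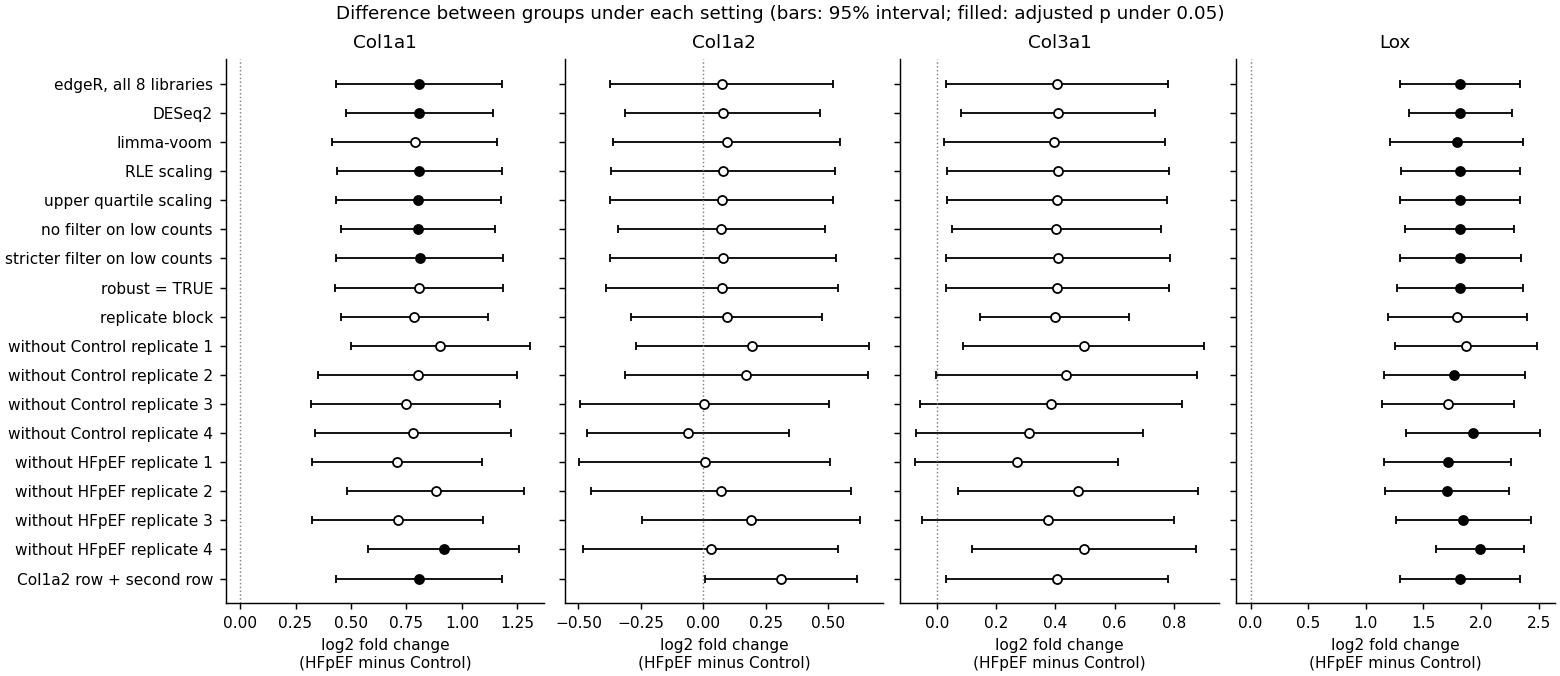
Log2 fold change of HFpEF minus Control (horizontal axis, own scale for each gene) for Col1a1, Col1a2, Col3a1 and Lox under each test, scaling, filter and left-out library, with 95% intervals; filled points have an adjusted p under 0.05. Lox stays between 1.71 and 1.99 and Col1a1 between 0.71 and 0.92. Col1a1 loses its filled mark in most fits with a library left out, with limma-voom, with robust = TRUE and with the replicate block. Lox loses its mark without Control replicate 1, without Control replicate 3 and with the replicate block. The Col1a2 row has 0.07 as deposited against 0.31 for its sum with ENSRNOG00000052925.

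The 4 genes did not change in equal measure. The ratio of 2 genes within a library was compared between the groups by an exact two-sided permutation test over the 70 ways to divide 8 libraries equally, for all 6 pairs, with Benjamini-Hochberg adjustment over the pairs. The ratios are not corrected for transcript length, so only their differences between libraries are read. The groups did not overlap in 4 of the 6 pairs, and each of these gave an exact permutation p of 0.0286, the smallest that this design allows, with an adjusted p of 0.0429. This adjusted p rests on all 4 pairs standing at the smallest value together. The pairs with Lox share its level, so they are not independent results. How often the groups separate in ratios of other genes was not computed.

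Lox rose relative to each collagen. Per Col1a1, Lox was 2.01-fold higher in HFpEF, with log2 ratios of -5.26 to -4.71 in Control and -4.42 to -3.54 in HFpEF (exact permutation p = 0.0286, adjusted p = 0.0429). Per Col3a1 it was 2.63-fold higher, with log2 ratios of -7.55 to -6.63 in Control and -6.22 to -5.31 in HFpEF. Per Col1a2 it was 3.24-fold higher on the row alone and 2.75-fold higher against its sum with ENSRNOG00000052925, again without overlap of the groups. Control replicate 4 had the highest Lox per collagen of its group in all 3 ratios, and it had the highest Lox and the lowest Col1a2 and Col3a1 levels among Control libraries.

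Col1a1 rose relative to Col3a1. Its log2 ratio was -2.15, -2.27, -2.29 and -1.92 in Control replicates 1 to 4 and -1.85, -1.78, -1.60 and -1.85 in HFpEF replicates 1 to 4. Control replicate 4 again came nearest to HFpEF. The difference was 0.39 on the log2 scale, or 1.31-fold, against 1.00 to 1.69 on that scale for the Lox ratios (exact permutation p = 0.0286, adjusted p = 0.0429).

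For the 2 chains of type I collagen the comparison missed the threshold. The Col1a1 to Col1a2 ratio was 1.61-fold higher in HFpEF on the rows as deposited (exact permutation p = 0.0571, adjusted p = 0.0686) and 1.37-fold higher against the sum of the Col1a2 row and ENSRNOG00000052925 (exact permutation p = 0.114, adjusted p = 0.137). HFpEF replicate 3 had the highest ratio and the lowest share of the summed count in the Col1a2 row. Ratio and share both contain the Col1a2 count, so they are not separate observations. The Col1a2 to Col3a1 ratio had a difference of -0.30 on the log2 scale on the rows as deposited and -0.06 with that sum in place of Col1a2 (exact permutation p = 0.314 and 0.657).

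With 1 library left out, 35 divisions remain and the smallest exact permutation p they allow is 0.0286. The 4 ratios with an adjusted p of 0.0429 then had adjusted p-values of 0.0429 to 0.0857. They stayed past the threshold without Control replicate 4 and missed it without any other single library. Their differences kept their direction, at 0.33 to 0.47 for Col1a1 to Col3a1, 0.82 to 1.13 for Lox to Col1a1, 1.55 to 1.96 for Lox to Col1a2 and 1.21 to 1.60 for Lox to Col3a1.

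**Figure D4:**
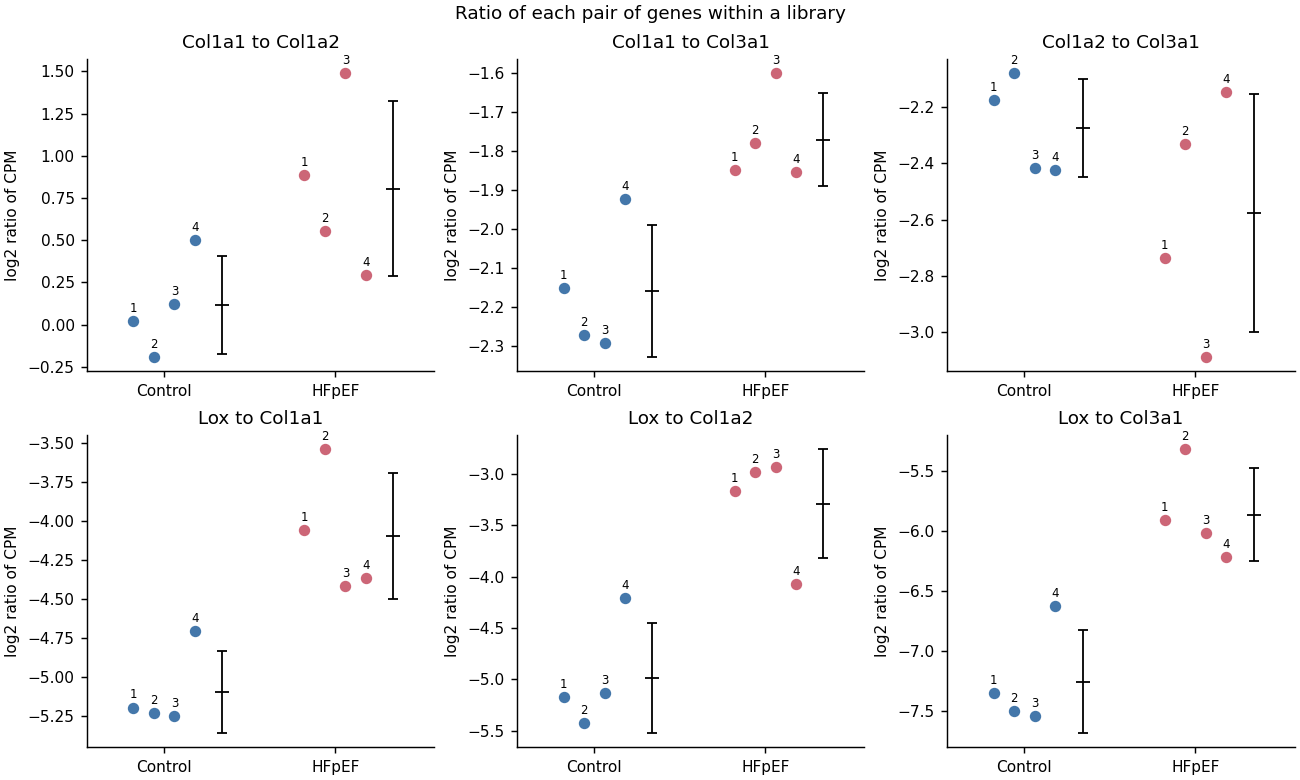
Log2 ratio of normalised CPM of each pair of genes within each Control (blue) and HFpEF (red) library, on the counts as deposited (numbers are replicates, black bars mean and SD, each panel with its own axis). The groups separate in the 3 Lox ratios and in Col1a1 to Col3a1, with Control replicate 4 the Control library nearest to HFpEF in these 4 panels, and overlap in the other 2.

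How the genes vary together was read from each library's deviation from the mean of its own group, in log2 CPM, so that the difference between the groups plays no part. Col1a1 and Col3a1 deviated together most closely, with Pearson's r = 0.86 and Spearman's rho = 0.83 over the 8 libraries. In HFpEF replicates 1 and 3 and Control replicate 1 both were above their group mean, and in HFpEF replicates 2 and 4 and Control replicates 3 and 4 both were below it. In Control replicate 2 the deviations had opposite signs, -0.0072 for Col1a1 and 0.11 for Col3a1. Libraries were permuted within groups, in every possible arrangement, and 6 pairs were compared. The exact permutation p was 0.0382 for r and 0.0347 for rho, or 0.229 and 0.208 after adjustment over the 6 pairs. Without HFpEF replicates 1 and 4, the libraries farthest from the median of Col1a1, r was 0.76, and with any 1 library left out it was 0.81 to 0.94.

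None of the 6 pairs passed after adjustment, and Col1a1 with Col3a1 was the only 1 with an unadjusted p under 0.05. Among the pairs with Lox, r was highest for Col1a1. With Col1a1 its r was 0.51 and its rho 0.33 (exact permutation p = 0.293 and 0.503), and r was -0.01 without HFpEF replicates 1 and 4. Leaving out HFpEF replicate 4 alone gave an r of 0.06, HFpEF replicate 1 alone 0.40 and HFpEF replicate 2 alone 0.79, so the relation rests mostly on HFpEF replicate 4 and is weakened by HFpEF replicate 2. With Col3a1 the r of Lox was 0.27 and its rho 0.19 (exact permutation p = 0.580 and 0.703). This r went from -0.19 without HFpEF replicate 4 to 0.62 without Control replicate 4. It was -0.25 within Control alone and 0.55 within HFpEF alone. HFpEF replicate 2 had a deviation of 0.35 on the log2 scale for Lox, of -0.21 for Col1a1 and of -0.20 for Col3a1.

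The Col1a2 row correlated with Col1a1 at r = 0.08 and rho = 0.21 (exact permutation p = 0.804 and 0.549). Both encode chains of the same molecule. Within Control alone their r was 0.71 and within HFpEF alone -0.41, each over 4 libraries and not tested. The r over all 8 libraries moved to 0.48 without HFpEF replicate 3 and to -0.18 without Control replicate 1. With Col3a1 the r of the Col1a2 row was 0.46 and its rho 0.57 (exact permutation p = 0.281 and 0.175). This r went from 0.19 without Control replicate 4 to 0.70 without HFpEF replicate 3. It was 0.96 within Control alone and -0.07 within HFpEF alone. The sum of the Col1a2 row and ENSRNOG00000052925 had an r of 0.31 with Col1a1 and 0.69 with Col3a1 (exact permutation p = 0.368 and 0.0382, adjusted p = 0.552 and 0.115). Col1a2 and Lox had an r of -0.07 and a rho of -0.05 (exact permutation p = 0.852 and 0.924), with r between -0.22 and 0.25 when 1 library was left out. Most of these values thus depend on single libraries.

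**Figure D5:**
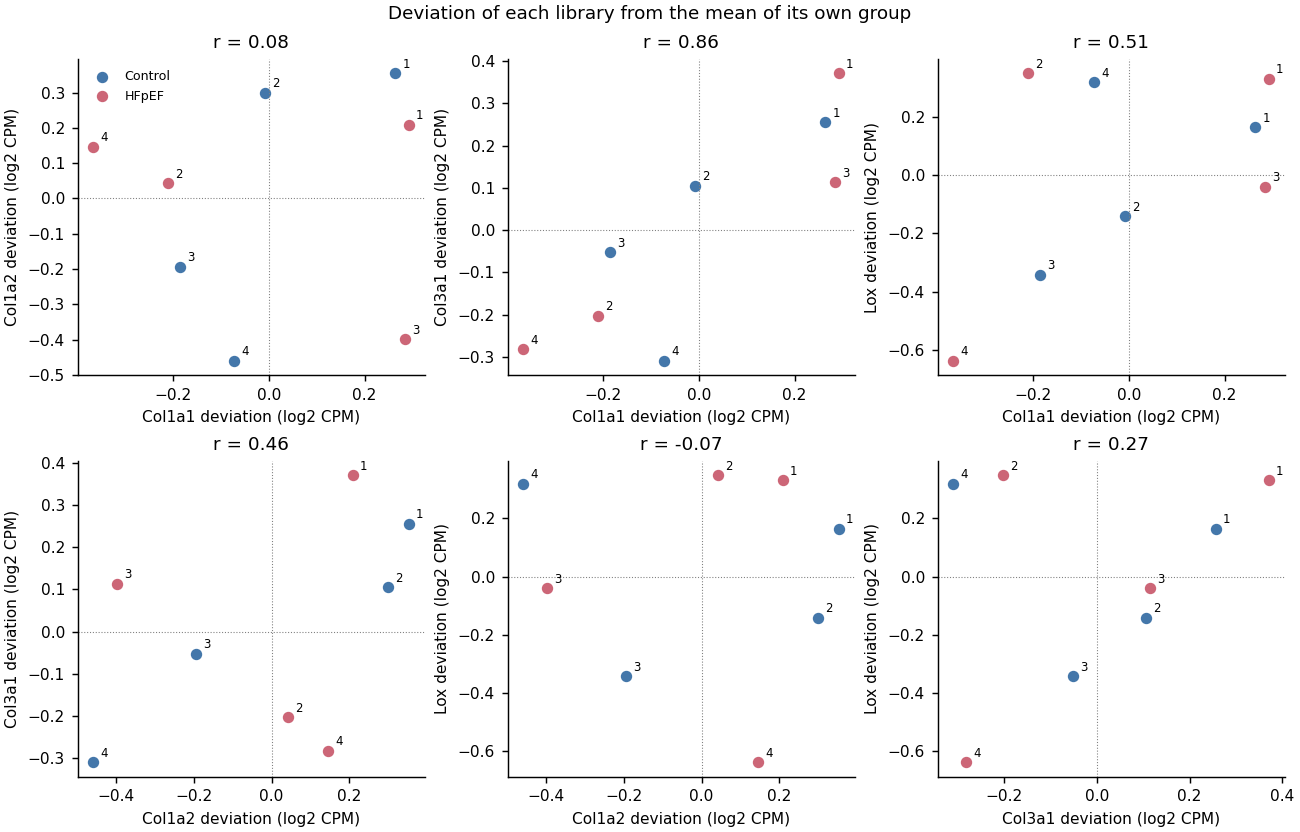
Deviation of each library from the mean of its own group in log2 CPM, for the 6 pairs of genes (blue Control, red HFpEF, numbers are replicates; Pearson's r over 8 libraries above each panel). The points of Col1a1 and Col3a1 lie along a line (r = 0.86), while those of Lox against Col1a2 and Col3a1 and of Col1a1 against Col1a2 are scattered.

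Other genes were ranked by how closely their within-group deviations followed the mean standardised deviation of the 4 genes. The 4 genes, each part of that mean, followed it unequally, at r = 0.85 for Col1a1, 0.51 for Col1a2, 0.90 for Col3a1 and 0.60 for Lox. Among 14302 other genes with a mean of at least 1 CPM, 19 had an r above 0.9 over the 8 libraries, and the median r was 0.0167. The closest were ENSRNOG00000030538 (r = 0.97) and ENSRNOG00000011213 (r = 0.96), neither of which was called between the groups (edgeR adjusted p = 0.487 and 0.388). ENSRNOG00000030538 stood at 2.20 ± 0.195 CPM (Control) and 1.92 ± 0.216 CPM (HFpEF; SD, n = 4 each). ENSRNOG00000011213 stood at 4.91 ± 0.625 CPM (Control) and 4.10 ± 0.737 CPM (HFpEF; SD, n = 4 each). They are named as the highest of 14302 values, so their r is a description only.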

How the data were processed

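The authors deposited 1 table of expected counts per gene, not normalized. The submitters' processing notes name Bowtie2 2.1.0, RSEM 1.2.15 and the rn6 build; the annotation release is not given in the sources used here, nor whether reads were counted by strand. Ribosomal RNA was removed before library construction, per the labels' protocols. The symbols of the 4 genes belong to the identifiers by which they were chosen; neither the table nor the reference gene table (assembly GRCr8) pairs identifiers with symbols, so the lists of matrix and cell type genes were not analysed and no coordinates are given. The genes, lists and tests were chosen with earlier results of these data known.

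Expected counts were rounded, filtered by edgeR's filterByExpr (99.95% of counts kept) and scaled by TMM. The groups were compared by edgeR 4.0.16 (glmQLFTest, R 4.3.3), two-sided; standard errors and 95% intervals came from its F statistic. Exact permutation tests were two-sided. The edgeR and permutation steps were tested on simulated data. Besides the 4 genes, the rule for named genes took those most alike in within-group deviations (at most 2 identifiers). Also run were DESeq2 1.42.0, limma-voom from limma 3.58.1, RLE and upper quartile scaling, 2 other filters, robust = TRUE, the replicate number as a block, a pseudocount of 0.5 for ratios, and each library left out. Pairs of libraries within a group had a chi-square of 18.3 to 82.4 per degree of freedom, above sampling noise, so all 8 were kept as separate.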

Additional observations from a re-analysis of the deposited data

Results flagged for a closer look

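The log2 ratio of Lox to Col1a1 in Control had 1 library standing apart by Dixon's test. Control replicate 4 was at -4.71, while the other 3 Control libraries lay between -5.26 and -5.20. In all, 32 sets of 4 values were examined and this was the only 1 past the critical value; chance marks about 5% of such sets. Without Control replicate 4 the difference in this ratio between the groups was 1.13 on the log2 scale, against 1.00 with it.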

How the results depend on the processing

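The replicate number as a block left the Col1a1 log2 fold change at 0.79 (edgeR adjusted p = 0.102) and that of Lox at 1.79 (edgeR adjusted p = 0.0888), both no longer called, and called 6 genes in all, against 316. Under the replicate block by sign-flips of 4 same-number differences, which allow no p below 0.125, the ratio differences stayed at 0.39 (Col1a1 to Col3a1), 1.00 (Lox to Col1a1), 1.69 (Lox to Col1a2) and 1.39 (Lox to Col3a1) and could not pass. Same-numbered libraries deviated together at r = -0.022, -0.056, 0.068 and -0.162 across genes. Only 2 of the 8 libraries were closest to the library of the same number, so no pairing was assumed. Col1a1 also lost its call with limma-voom (0.79, adjusted p = 0.0547) and with robust = TRUE (0.81, edgeR adjusted p = 0.0508). DESeq2 called 1248 genes, Col1a1 and Lox among them. Col1a2 and Col3a1 were not called under any alternative; over the 8 other than left-out libraries, adjusted p for Col3a1 ran from 0.120 to 0.274. The cause of these changes was not tested.

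With each library left out in turn, the log2 fold change ran from 0.71 to 0.92 for Col1a1, from -0.059 to 0.20 for Col1a2 (negative, at -0.059, without Control replicate 4), from 0.27 to 0.50 for Col3a1 and from 1.71 to 1.99 for Lox, and between 22 and 332 genes were called. Ratio differences ran from 0.46 to 0.86 (Col1a1 to Col1a2), 0.33 to 0.47 (Col1a1 to Col3a1), -0.44 to -0.13 (Col1a2 to Col3a1), 0.82 to 1.13 (Lox to Col1a1), 1.55 to 1.96 (Lox to Col1a2) and 1.21 to 1.60 (Lox to Col3a1). Under RLE scaling, Spearman's rho, each library left out, or the Col1a2 row summed with ENSRNOG00000052925, 0 of the 6 correlations passed after adjustment (exact permutation). The counts of the matrix gene lists were not run, because the identifiers carry no names.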
